A study of Homo sapiens with 12 samples.

Results

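The protein disulfide isomerases and the ERO1 oxidases were followed as a group of 10 genes in human stem cell-derived pancreatic alpha cells under endoplasmic reticulum (ER) stress. The members were the rows of the deposited count table whose gene symbol was P4HB, PDIA3, PDIA4, PDIA5, PDIA6, TXNDC5, TXNDC11, ERP44, ERO1A or ERO1B. All 10 were found among the 28278 gene symbols of the table, and all 10 were among the 17137 genes that passed the filter on low counts. Alpha cells, the glucagon-secreting cells of the islet, were made by differentiation of the established human embryonic stem cell line HUES-8, and all samples came from this line. The cells were kept for 48 h in bioreactors of 30 mL stirred at 40 rpm, either with the solvent DMSO (6 samples) or with 5 uM tunicamycin (6 samples), and were profiled by bulk RNA sequencing. Samples 1 to 3 of each group belonged to sequencing batch 1 and samples 4 to 6 to batch 2. The labels call the samples biological replicates without saying whether a number marks a separate differentiation, so the p-values speak only to the spread among the samples at hand, part of which may be technical.

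Disulfide bonds of secreted proteins are made in the ER. An isomerase of the thioredoxin fold passes its own disulfide to the folding client, or reduces and rearranges a wrong one, and an ERO1 oxidase then reoxidizes the isomerase and hands the electrons to molecular oxygen, which yields hydrogen peroxide. Tunicamycin blocks the first step of N-glycan assembly, so that glycoproteins misfold and the unfolded protein response is engaged through IRE1-XBP1, ATF6 and PERK-ATF4. Some peptide hormone precursors and processing enzymes of islet cells pass through this oxidative folding step. Which precursors of alpha cells do so was not examined here.

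Total counts per sample ran from 17523442 to 28872269. The alpha cell label was met by GCG, which encodes glucagon, at a mean of 74634 CPM (counts scaled to the size of each library) in DMSO and 56820 CPM in tunicamycin, and by TTR at 21515 and 19791 CPM. IRX2 (236 and 203 CPM) and PCSK2 (173 and 154 CPM) were also present, and none of these 4 genes passed the test, although GCG and IRX2 were lower in tunicamycin in 6 of 6 pairs of same-numbered samples. Transcripts of other cell types were present in all 12 samples. Of the 5 liver and gut markers 4 fell, and their summed level was 346 to 466 CPM in DMSO and 188 to 313 CPM in tunicamycin. Of the 5 ductal and acinar markers 4 fell (349 to 525 CPM against 141 to 310 CPM), and of the 6 beta and delta markers 3 fell (1258 to 5785 CPM against 1636 to 3334 CPM). None of 12 mesenchymal markers (1314 to 3208 CPM against 1119 to 2168 CPM) and none of 10 heart muscle markers (10.6 to 2294 CPM against 14.5 to 1183 CPM) passed the test. No listed marker was at 0 throughout. These levels moved beside the results on the 10 genes, and their part in them was not tested. In bulk RNA, a smaller share of cells of a type and less RNA per cell cannot be told apart.

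The promoter sequences are given first, because an ER stress response element was found in front of 2 of the 10 genes. Windows of 250 bases before the annotated start were read from RefSeq (GRCh38.p14), where 9 of the 10 members matched at 12 starts. PDIA3 had no entry. The motifs searched, on both strands, were the ER stress response element ERSE (CCAAT, then 9 bases of any kind, then CCACG, known as a site of NF-Y with ATF6 or XBP1), ERSE-II (ATTGG, then 1 base of any kind, then CCACG), the UPRE core (TGACGTGG), the ATF4-type element (TGATGNAA), the hypoxia response core (ACGTG, also part of the UPRE core) and the CCAAT box, which is itself part of ERSE. ERSE was held by 0.074% of the 35116 RefSeq promoter windows. It was found at the second start of PDIA6, 86 to 68 bases before the start, and at ERO1B, in the opposite orientation, 243 to 225 bases before the start. Allowing 1 mismatch added no other member, while 1.36% of all windows then matched. The UPRE core, held by 0.612% of windows, was found at the second start of TXNDC5. No member window held ERSE-II (0.0513% of windows) or the ATF4-type element (3.14%). The hypoxia response core, held by 18.5% of windows, was found at PDIA4, PDIA5, TXNDC5, ERP44 and ERO1A, and the CCAAT box, held by 32.0%, at P4HB, PDIA4, PDIA6, TXNDC5, ERP44 and ERO1B. A match of letters is a description of the window and not evidence of binding. The 3 stretches printed here are the part of each window outside any annotated exon, 5′ to 3′ on the strand of the gene, and capitals mark the ERSE match. PDIA4, the member with the largest increase, is shown beside the 2 genes with a match and has no capitals. The lines are chr2:10812845-10813035, chr1:236281986-236282208 and chr7:149028642-149028740, all on the minus strand.
PDIA6: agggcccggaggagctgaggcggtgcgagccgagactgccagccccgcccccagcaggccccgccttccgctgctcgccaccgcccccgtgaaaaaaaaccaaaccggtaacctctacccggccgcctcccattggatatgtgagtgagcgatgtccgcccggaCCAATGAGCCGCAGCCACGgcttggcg
ERO1B: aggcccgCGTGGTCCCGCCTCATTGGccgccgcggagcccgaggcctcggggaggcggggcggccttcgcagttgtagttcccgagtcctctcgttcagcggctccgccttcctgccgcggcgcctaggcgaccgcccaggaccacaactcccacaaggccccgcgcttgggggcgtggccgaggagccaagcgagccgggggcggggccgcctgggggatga
PDIA4: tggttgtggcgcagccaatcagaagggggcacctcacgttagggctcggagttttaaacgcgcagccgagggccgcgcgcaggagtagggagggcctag

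Tunicamycin raised most of the group. With edgeR's quasi-likelihood test and a batch term, 8 of the 10 members rose, none fell, and TXNDC5 and ERO1A did not pass the threshold of 0.05 on the Benjamini-Hochberg adjusted p. Over all 17137 tested genes 7.84% passed this threshold, 4.56% higher and 3.29% lower. With the replicate number as a block in place of the batch, 9 members rose, ERO1A among them, beside 8.92% of all tested genes. The median log2 fold change was 1.07 over the members and -0.01 over all tested genes. Together the 10 genes took 0.244% ± 0.018 (SD, n = 6) of all counts in DMSO and 0.599% ± 0.050 (SD, n = 6) in tunicamycin. All 6 tunicamycin samples lay above all 6 DMSO samples for P4HB, PDIA3, PDIA4, PDIA5, PDIA6 and ERP44, a pattern seen in 2.47% of the tested genes, while 1.3% showed the reverse. Every member but TXNDC5 was higher in tunicamycin in 6 of 6 pairs of same-numbered samples, as were 10.7% of the tested genes. The plot of CPM by sample shows these separations.

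**Figure D1:**
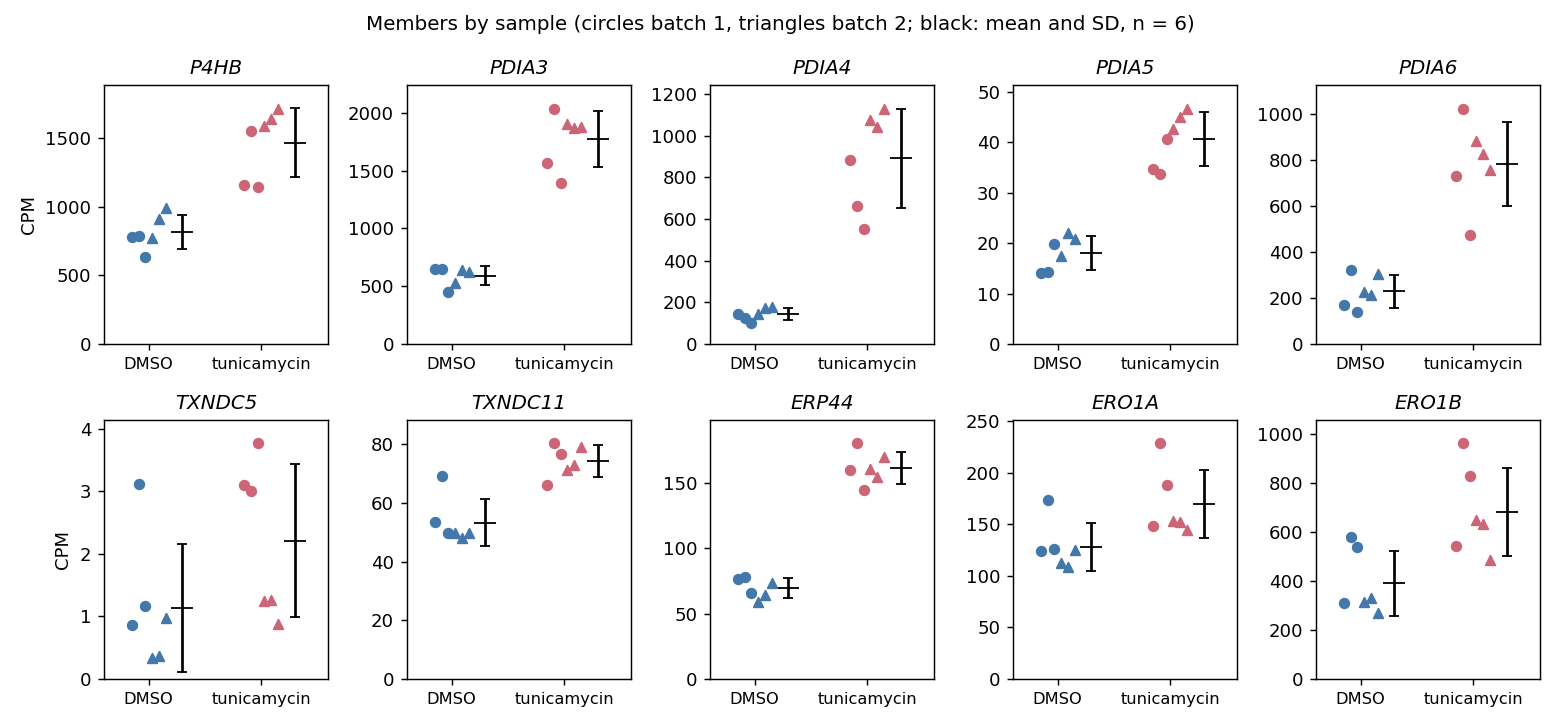
CPM of each of the 10 members in the 6 DMSO (blue) and 6 tunicamycin (red) samples, with circles for batch 1, triangles for batch 2, and the mean and SD in black; each panel starts at 0. For PDIA4 the DMSO samples lie between 103 and 180 CPM and the tunicamycin samples between 553 and 1129 CPM, whereas for TXNDC5 the groups overlap between 0.872 and 3.11 CPM.

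PDIA4, also known as ERp72, an isomerase that carries an extra thioredoxin domain and is found in complexes with BiP and other chaperones, had the largest increase of the group (chr7:149003062-149028641, GRCh38). Its level ran from 103 to 180 CPM with a median of 146 CPM in DMSO, and from 553 to 1129 CPM with a median of 963 CPM in tunicamycin. The groups did not overlap, and the 3 tunicamycin samples of batch 2 (1042 to 1129 CPM) lay above the 3 of batch 1 (553 to 885 CPM). The log2 fold change was 2.59 ± 0.14 (SE), a 6.02-fold rise (edgeR adjusted p = 8.19e-08), and it ranked 18 among the 17137 tested genes by log2 fold change. Its smallest difference between same-numbered samples, 2.36 on the log2(CPM + 1) scale, was larger than the largest of any other member (2.08, PDIA6).

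PDIA6, also known as P5, an isomerase that works with BiP, had the next largest fold change (chr2:10783391-10837977). It ran from 139 to 325 CPM with a median of 220 CPM in DMSO, and from 477 to 1026 CPM with a median of 794 CPM in tunicamycin. The groups did not overlap, although DMSO 2 (325 CPM) and DMSO 6 (304 CPM) were high and tunicamycin 3 (477 CPM) was low. The rise was 3.41-fold, a log2 fold change of 1.77 ± 0.22 (SE, edgeR adjusted p = 1.85e-04). ATP6V1C2, on the other strand, covers 29.7% of the PDIA6 exon bases, and some of its reads cannot be assigned with certainty because the strand setting of the counting is not known here.

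PDIA3, also known as ERp57, is the isomerase that calnexin and calreticulin bring to glycoproteins (chr15:43746392-43773279). It ran from 451 to 647 CPM with a median of 632 CPM in DMSO, and from 1392 to 2036 CPM with a median of 1870 CPM in tunicamycin. DMSO 3 and tunicamycin 3 were the lowest of their groups, tunicamycin 1 was the next lowest at 1566 CPM, and the groups did not overlap. PDIA3 rose 3.00-fold (log2 fold change 1.59 ± 0.13 SE, edgeR adjusted p = 4.47e-06). The processed pseudogene PDIA3P1 matched a PDIA3 transcript at 97.8% identity over 1088 aligned bases, and its row held 4.44% to 5.83% as many counts as PDIA3 in DMSO and 3.99% to 4.99% in tunicamycin. Its log2 fold change was 1.48, and the split of reads between these copies is uncertain. ELL3 and other genes on the opposite strand covered 21.6% of the PDIA3 exon bases.

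P4HB, the classical protein disulfide isomerase, also serves as a subunit of collagen prolyl 4-hydroxylase and of the microsomal triglyceride transfer protein (chr17:81843159-81860694). It ran from 635 to 990 CPM with a median of 785 CPM in DMSO, and from 1143 to 1712 CPM with a median of 1568 CPM in tunicamycin. The groups did not overlap, and tunicamycin 1 and 3 (1159 and 1143 CPM) stood below the other 4 tunicamycin samples (1551 to 1712 CPM). The 1.80-fold rise (log2 fold change 0.84 ± 0.11 SE, edgeR adjusted p = 3.60e-04) was smaller than those of PDIA3, PDIA4 and PDIA6. An antisense gene covered 20.3% of its exon bases.

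PDIA5, also known as PDIR, was a low-level member (chr3:123067062-123225227). It ran from 14.1 to 22.1 CPM with a median of 18.6 CPM in DMSO, and from 33.7 to 46.7 CPM with a median of 41.6 CPM in tunicamycin. Samples 1 and 2 were the lowest of each group, at 14.1 and 14.2 CPM in DMSO and 34.7 and 33.7 CPM in tunicamycin, and the groups did not overlap. It rose 2.25-fold (log2 fold change 1.17 ± 0.11 SE, edgeR adjusted p = 1.64e-05). No other annotated gene overlapped the exons of PDIA4, PDIA5, ERP44 or ERO1B.

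TXNDC11, a membrane-bound thioredoxin-fold protein known to bind the DUOX oxidases and the degradation lectin EDEM, had the smallest fold change among the 8 members that rose (chr16:11679080-11742878). It ran from 48.1 to 69.3 CPM with a median of 49.7 CPM in DMSO, and from 66.0 to 80.4 CPM with a median of 74.9 CPM in tunicamycin. A single DMSO sample, DMSO 2 at 69.3 CPM, reached into the tunicamycin range, above tunicamycin 1 at 66.0 CPM. The log2 fold change was 0.48 ± 0.10 (SE), a 1.40-fold rise with an edgeR adjusted p of 0.00788. Without both samples numbered 4 the adjusted p was 0.0538 and the call was lost. Opposite-strand genes covered 14.96% of its exon bases.

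TXNDC5, also known as ERp46, a fast oxidizer of folding clients, was nearly absent from the counts, with 7 to 100 reads per sample (chr6:7881517-7910814). It ran from 0.339 to 3.11 CPM with a median of 0.913 CPM in DMSO, and from 0.872 to 3.77 CPM with a median of 2.13 CPM in tunicamycin. The groups overlapped, with DMSO 2 at 3.11 CPM, and the 3 tunicamycin samples of batch 1 (3.01 to 3.77 CPM) lay above the 3 of batch 2 (0.872 to 1.25 CPM). The log2 fold change of 0.96 ± 0.36 (SE) did not pass the test (edgeR adjusted p = 0.128), and 4 of 6 pairs were higher in tunicamycin. It passed without DMSO 2 (log2 fold change 1.33, adjusted p = 0.0330) and without both samples numbered 2 (1.33, adjusted p = 0.0422). The row may not hold all of the gene's reads, because 82.3% of the TXNDC5 exon bases also belong to the read-through gene BLOC1S5-TXNDC5 on the same strand, whose row was at 0 in all 12 samples. The TXNDC5 level is uncertain, because the treatment of reads that fall in both genes is not known here.

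ERP44, a chaperone that cycles between the Golgi and the ER and retains the ERO1 enzymes and unassembled clients through mixed disulfides, varied little across samples (chr9:99979179-100099040). Its level ran from 58.8 to 78.3 CPM with a median of 69.6 CPM in DMSO, and from 144 to 181 CPM with a median of 161 CPM in tunicamycin. The groups did not overlap, and the coefficient of variation was 11.3% in DMSO and 7.63% in tunicamycin, against 15.01% and 7.26% for TXNDC11 and 90.02% and 55.4% for TXNDC5. ERP44 rose 2.33-fold (log2 fold change 1.22 ± 0.09 SE, edgeR adjusted p = 2.91e-06).

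Of the ERO1 oxidases, ERO1B, the form known to be abundant in pancreatic endocrine cells, rose. ERO1A, the more widely expressed form that is also induced by hypoxia, did not pass the test with the batch term. It passed with the replicate number as a block. ERO1B ran from 269 to 581 CPM with a median of 322 CPM in DMSO, and from 486 to 961 CPM with a median of 639 CPM in tunicamycin (chr1:236215555-236281985). Samples 2 and 3 were the highest of each group, at 581 and 537 CPM in DMSO and 961 and 827 CPM in tunicamycin, and these DMSO samples reached into the tunicamycin range. The rise was 1.78-fold (log2 fold change 0.83 ± 0.17 SE, edgeR adjusted p = 0.00937). The adjusted p was 0.0643 without both samples numbered 4 and 0.0521 without both samples numbered 5, so the call was lost in both cases.

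ERO1A ran from 109 to 173 CPM with a median of 124 CPM in DMSO, and from 145 to 229 CPM with a median of 153 CPM in tunicamycin (chr14:52639916-52695900). Sample 2 was the highest of each group, and DMSO 2 at 173 CPM was the only DMSO sample above the lowest tunicamycin sample. The log2 fold change was 0.40 ± 0.12 (SE), 1.32-fold, with an edgeR adjusted p of 0.0521, and it was higher in 6 of 6 pairs. This value lies at the threshold: it was 0.0495 when the filter on low counts was set by group alone and 0.00394 with the replicate number as a block, which made 9 of 10 members higher beside 8.92% of all tested genes. Leaving out DMSO 2 gave 0.0223, and leaving out tunicamycin 1 gave 0.0243. An antisense gene covered 10.9% of its exon bases.

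The pair was compared directly as a log2 ratio of ERO1A over ERO1B within each sample, on the log2(CPM + 1) scale. The ratio was -1.55 ± 0.34 (SD, n = 6) in DMSO and -1.98 ± 0.15 (SD, n = 6) in tunicamycin, and it was lower in tunicamycin in 6 of 6 pairs. The difference of -0.44 had a two-sided p of 0.02 in an exact permutation test with labels permuted within batch (400 arrangements, smallest possible p 0.005). The permutation did not use the pairing by number. The DMSO samples ran from -2.08 (DMSO 3) to -1.10 (DMSO 6), and the tunicamycin samples from -2.13 to -1.74. DMSO 3 was the only DMSO sample within the tunicamycin range, but DMSO 2 (-1.738) lay barely above its upper end (-1.741, tunicamycin 6). The difference of the samples numbered 3 was the smallest. The difference was -0.31 within batch 1 (exact p = 0.3) and -0.56 within batch 2 (exact p = 0.1), where 3 samples against 3 cannot give less than 0.1. Without tunicamycin 3 the exact p was 0.055.

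**Figure D2:**
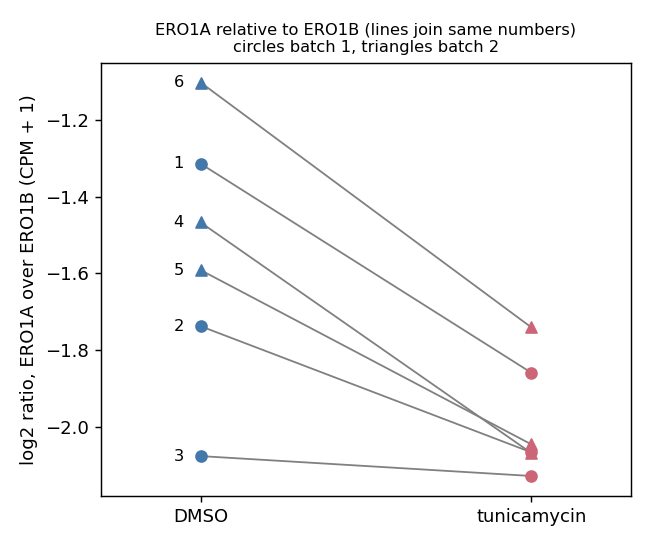
Log2 ratio of ERO1A over ERO1B (CPM + 1) in each sample, with lines joining the DMSO and tunicamycin samples of the same number, circles for batch 1 and triangles for batch 2. All 6 lines fall from left to right, from between -2.08 and -1.10 in DMSO to between -2.13 and -1.74 in tunicamycin.

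The same-numbered pairs show how far each member's response varied. On the log2(CPM + 1) scale the 6 differences of PDIA4 ran from 2.36 to 2.86, those of PDIA6 from 1.32 to 2.08 and those of PDIA3 from 1.27 to 1.85. ERP44 ran from 1.05 to 1.44 and PDIA5 from 1.00 to 1.24, so the ranges of these genes overlapped in part. All 6 differences of ERO1B (0.62 to 1.04) were larger than all 6 of ERO1A (0.21 to 0.57). TXNDC11 ran from 0.21 to 0.66, P4HB from 0.57 to 1.04, and TXNDC5 from -0.07 to 1.14. TXNDC5 lay between 0.339 and 3.77 CPM, where the added 1 CPM shrinks the differences, so its range understates its variation. No member passed the test of the interaction between treatment and batch, whose unadjusted p was 0.267 to 0.945 over the 10 genes. With 3 samples per group and batch, the SE of the interaction was 0.19 (ERP44) to 0.69 (TXNDC5) on the log2 scale. Differences between batches of that size could therefore be missed. No tested gene passed the adjusted threshold for this interaction in edgeR, and 169 (0.986%) had an unadjusted p under 0.05.

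**Figure D3:**
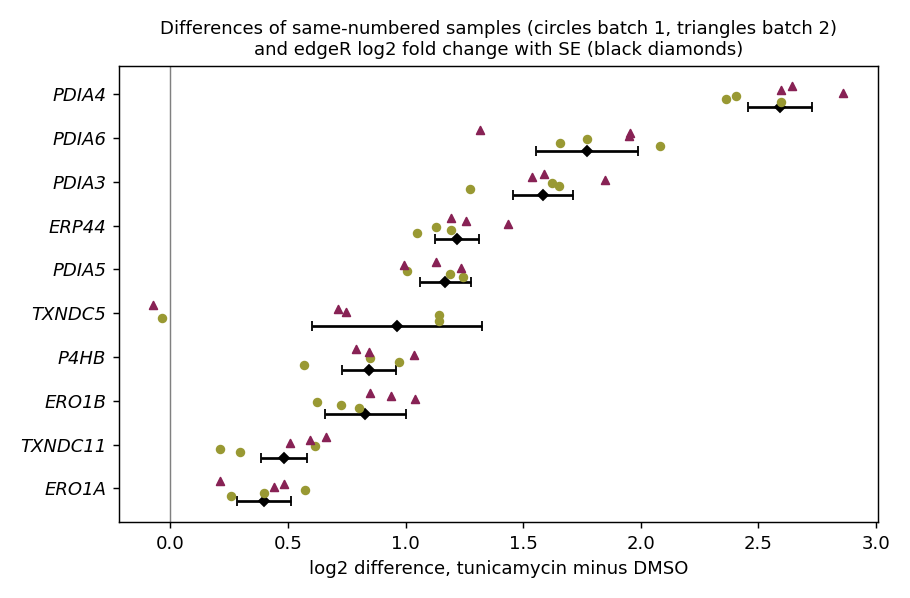
Tunicamycin-minus-DMSO differences on the log2(CPM + 1) scale for the 6 same-numbered pairs (circles batch 1, triangles batch 2) and the edgeR log2 fold change with its SE (black diamonds), members sorted by fold change. PDIA4 stands to the right of all others at 2.36 to 2.86, and TXNDC5 is the only member with points below 0. The added 1 CPM shrinks the points of TXNDC5.

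Per kilobase of annotated exon, which allows levels of different genes to be compared, P4HB and PDIA3 led in both groups. The mean DMSO levels were 312 CPM per kb for P4HB, 158 for PDIA3, 85.4 for ERO1B, 66.1 for PDIA6 and 50.2 for PDIA4. Lower levels were found for ERO1A (24.1 CPM per kb), TXNDC11 (16.6), ERP44 (14.3), PDIA5 (10.1) and TXNDC5 (0.351). By the range over the 6 samples, P4HB stood clear of PDIA3, PDIA4 clear of ERO1A, and PDIA5 clear of TXNDC5, while the other neighbours in this order overlapped. In tunicamycin PDIA4 moved from the fifth to the third place, with 562 CPM per kb for P4HB, 476 for PDIA3, 307 for PDIA4, 225 for PDIA6 and 149 for ERO1B. ERP44 (33.3 CPM per kb) moved past ERO1A (31.8) and TXNDC11 (23.1), with PDIA5 at 22.6 and TXNDC5 at 0.684. The ranges of the first 5 overlapped from each to the next in tunicamycin, and those of ERP44 and ERO1A and of TXNDC11 and PDIA5 also overlapped. With coding bases as the length, 6 members kept their place in DMSO and 3 in tunicamycin, where PDIA3 then led P4HB, so the order depends on the length used.

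**Figure D4:**
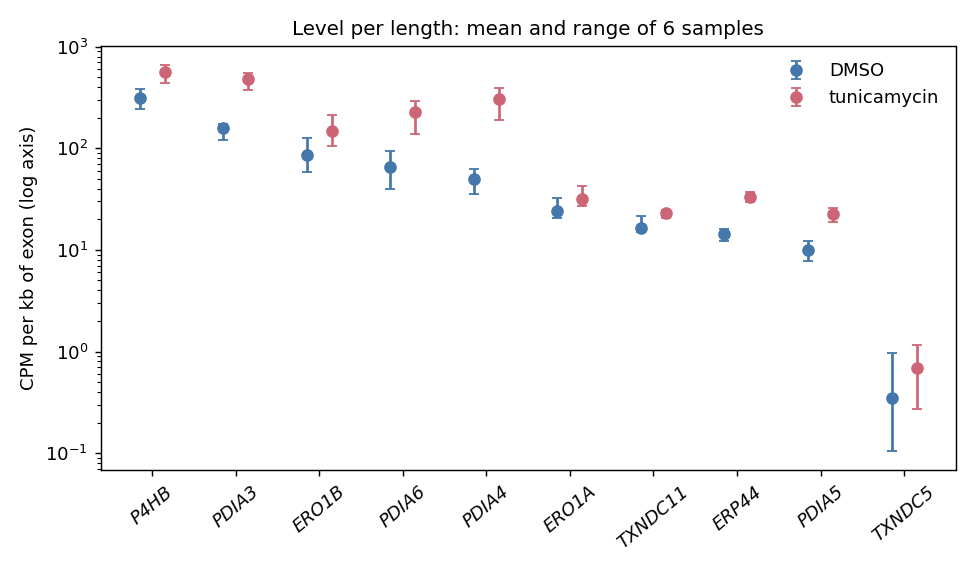
Mean level per kilobase of exon (CPM per kb, log axis) of each member in DMSO (blue) and tunicamycin (red), with bars for the lowest and highest of 6 samples, members in the order of their DMSO level. P4HB leads in both groups at 312 and 562 CPM per kb, and PDIA4 goes from 50.2 to 307 CPM per kb.

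The genes whose 6 pair differences were closest to each member were found by the root mean square difference over the pairs, among 11388 tested genes with a mean log2 CPM of at least 3. PDIA4 was closest to HSPA5, which encodes the ER chaperone BiP (0.118 on the log2 scale), and to MANF, a secreted ER stress protein (0.137). PDIA6 was closest to WARS1, a tRNA synthetase (0.133), and to DNAJC3, an ER co-chaperone (0.188). For PDIA3 the nearest were its own pseudogene PDIA3P1 (0.163) and MAGT1 (0.170), and for P4HB they were ZFAND2A (0.0851) and OS9, an ER degradation lectin (0.111). PDIA5 was nearest to CLDN1 (0.118) and the signal peptidase subunit SPCS3 (0.135), and ERP44 to the signal peptidase subunit SPCS2 (0.106) and ESRP1 (0.117). ERO1B was nearest to TMEM39A (0.0731) and the translocon subunit SEC61A1 (0.0822), and ERO1A to ELOVL5 (0.0513) and HOOK1 (0.0633), neither of which passed the test. TXNDC11 was nearest to RAD51AP1 (0.104), which also did not pass (edgeR adjusted p = 0.214), and to SLC35C1 (0.119). TXNDC5 was nearest to SETD7 (0.229) and FNDC3B (0.238), at the largest distances of the group. Genes with a small change lie close to many others on this measure.

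Of 29 further ER redox genes (other PDI-like, thioredoxin-fold and thiol redox proteins of the ER) 27 were tested, 7 rose and 1 fell, with a median log2 fold change of 0.20. CRELD2, a secreted ER stress protein, rose from 76.1 ± 11.9 to 365 ± 36.9 CPM (SD, n = 6; log2 fold change 2.26 ± 0.11 SE). Its relative CRELD1 rose from 101 ± 24.0 to 341 ± 104 CPM (1.74 ± 0.20 SE), and MAGT1, the redox subunit of one oligosaccharyltransferase form, rose from 108 ± 19.6 to 314 ± 42.5 CPM (1.55 ± 0.13 SE). TUSC3, the alternative to MAGT1 in that complex, was at 348 ± 77.1 and 376 ± 82.1 CPM and ERP29 at 256 ± 50.2 and 294 ± 76.4 CPM, and neither passed the test. The single listed gene that fell, ERP27, a PDI homologue without an active site and named here after its value was seen, had 59.7 ± 23.3 CPM in DMSO and 23.6 ± 13.99 CPM in tunicamycin (log2 fold change -1.33 ± 0.38 SE, edgeR adjusted p = 0.0484). With the replicate number as a block, 9 genes of this list rose and 2 fell. No gene of the list passed as lower when DMSO 1, 4 or 5 or tunicamycin 1, 4 or 5 was left out.

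The proteins that work with the isomerases were followed as a list of 10, of which 9 were tested, 5 rose and 1 fell, with a median log2 fold change of 0.94. HSPA5 rose from 845 ± 144 to 5270 ± 1022 CPM (log2 fold change 2.63 ± 0.16 SE), and HSP90B1, the ER paralogue of HSP90, from 867 ± 128 to 5370 ± 804 CPM (2.63 ± 0.14 SE). CALR, the calreticulin that presents glycoproteins to PDIA3, rose from 1059 ± 252 to 3639 ± 725 CPM (1.78 ± 0.17 SE). P4HA1, a catalytic subunit that pairs with P4HB in prolyl hydroxylase, was at 44.7 ± 10.9 and 59.0 ± 11.1 CPM and did not pass the test (edgeR adjusted p = 0.169, and 0.00412 with the replicate number as a block). CLGN, a calnexin homologue known from testis, was at 41.5 ± 6.71 and 45.3 ± 4.11 CPM and did not pass. The gene that fell, MTTP, which encodes the lipid transfer subunit that pairs with P4HB, was named after its value was seen and was low throughout, at 2.77 ± 1.04 and 1.18 ± 0.42 CPM (edgeR adjusted p = 0.0351). No partner gene passed as lower when DMSO 3, 5 or 6 or any of tunicamycin 2 to 6 was left out.

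Of 10 genes listed as regulators of the unfolded protein response 8 rose and none fell, with a median log2 fold change of 0.96. Over all tested genes 4.56% rose and 3.29% fell. HERPUD1, a target gene of the response, rose from 66.6 ± 6.78 to 324 ± 41.0 CPM (log2 fold change 2.28 ± 0.11 SE). TRIB3 rose from 26.9 ± 8.02 to 123 ± 29.6 CPM (2.21 ± 0.19 SE). DDIT3, which encodes CHOP, rose from 26.2 ± 3.67 to 115 ± 19.2 CPM (2.13 ± 0.13 SE). ATF6, at 71.8 ± 14.5 and 97.3 ± 16.3 CPM, and ATF6B, at 9.74 ± 1.76 and 12.05 ± 7.79 CPM, did not pass. With the replicate number as a block 9 of these 10 genes rose, ATF6 among them (edgeR adjusted p = 0.00279, higher in 6 of 6 pairs). Because ERO1A is also a known hypoxia-response gene, 18 such genes were listed, of which 17 were tested, 1 rose and 2 fell, with a median log2 fold change of -0.04. ADM fell from 6.05 ± 1.18 to 3.49 ± 0.48 CPM (-0.79 ± 0.18 SE) and LDHA from 115 ± 23.7 to 77.0 ± 5.54 CPM (-0.58 ± 0.12 SE), and KDM3A rose from 71.7 ± 8.63 to 86.4 ± 7.45 CPM (0.27 ± 0.07 SE). VEGFA, at 664 ± 179 and 619 ± 99.4 CPM, and ENO2, at 213 ± 26.9 and 205 ± 18.5 CPM, did not pass. With the replicate number as a block, 5 hypoxia-response genes rose and 3 fell.

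**Figure D5:**
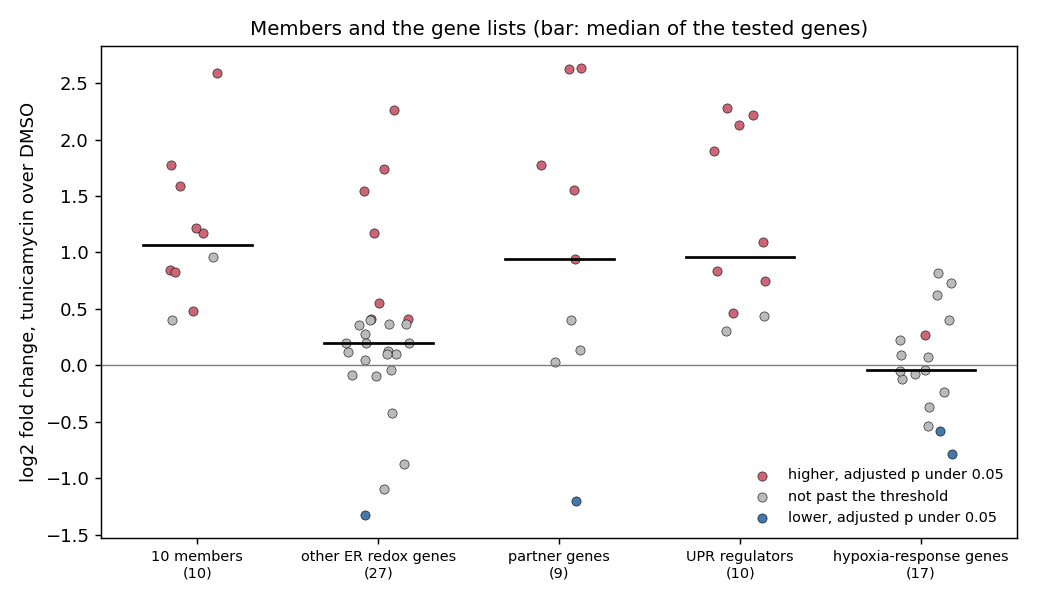
Log2 fold change of each tested gene, tunicamycin over DMSO, for the 10 members and the 4 gene lists, with the number of tested genes under each name; red is higher and blue lower past the edgeR adjusted threshold, grey is not past it, and the bar is the median. The medians are 1.07 for the members, 0.20 for the other ER redox genes and 0.94 for the partner genes. They are 0.96 for the genes listed as regulators and -0.04 for the hypoxia-response genes.

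The ERSE printed above for PDIA6 and ERO1B was found in the promoter windows of 25 gene symbols, a list made after the fold changes had been seen. Of these, 18 were tested, 13 rose and 1 fell, where 4.56% of all tested genes rose and 3.29% fell. PDIA6 and ERO1B are themselves among the 13, so their rise is not a further result about the element. HSPA5, HSP90B1, CALR, CANX, CRELD2 and XBP1 were among the 13, and the element was first described from promoters such as those of HSPA5, HSP90B1 and CALR, so these are not independent of it. SERP1 and EIF2A share 1 site between them, as do ALG12 and CRELD2. P4HB, PDIA4, PDIA5, TXNDC11 and ERP44 rose without an ERSE match in the windows searched. Only letters within 250 bases before the listed starts were read. All 250 bases of each window were searched, annotated exons included. The longest stretch outside annotated exons was 99 bases at the first start of PDIA4, 91 bases at P4HB, and 0 bases at TXNDC11 and ERO1A. Sequence further upstream was not read.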

How the data were processed

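Bulk RNA sequencing libraries of 12 samples (6 DMSO, 6 tunicamycin) were analysed from the authors' deposited table of raw read counts per gene. Per the labels' protocols, total RNA came from the RNeasy Mini kit and was made into libraries by NEBNext Ultra II RNA. The submitters' processing notes name cutadapt 4.4, HISAT2 2.1.0, featureCounts 2.0.6 and the build GRCh38. Not given in the sources used here: the annotation, the strand setting and the treatment of reads that fall in several genes.

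The counts were tested as deposited with edgeR 4.0.16 (R 4.3.3): TMM factors, filterByExpr with the design (17137 of 28278 genes kept), batch as a covariate, a two-sided quasi-likelihood F test, and Benjamini-Hochberg adjustment over all genes kept, with a threshold of 0.05 and no minimum fold. The plan named filterByExpr without saying whether by group or by design. The form by design was taken after results under both had been seen, and it left ERO1A just short of the threshold, where the form by group called it. The SE of a log2 fold change is its size divided by the square root of F. CPM values use the TMM library sizes. Same-numbered samples deviated together, with correlations from 0.11 to 0.61 around the group means and from 0.12 to 0.58 around the means of group and batch. All were over 0.1, and the numbers were taken as pairing the samples. This cut does not by itself show pairing, because correlations with another number reached 0.28. The pair counts, pair ranges and nearest genes rest on it. Not every number matched its own best: around the group means number 6 had 0.11 and a highest correlation with another number of 0.17, and around the means of group and batch number 4 had 0.12 and 0.20 and number 5 had 0.18 and 0.27. No replicates of a group agreed within sampling noise (chi-square per gene 10.9 to 99.6).

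Lengths and exon overlaps are from the basic annotation of GENCODE 29, and overlaps in its full annotation were not checked. Promoter sequences are from RefSeq (GRCh38.p14), and the exons left out of the printed stretches are from the full GENCODE 29 annotation. The alternatives were a replicate block, no batch term, RLE or upper-quartile factors, no filter, DESeq2 1.42.0, limma-voom (limma 3.58.1), leaving out samples, and each batch alone. The edgeR script was tested on simulated data. Genes were named by a rule: all 10 members, per list the 3 genes past the threshold with the largest fold change and the 2 most abundant others, and the 2 nearest genes of each member. The members, lists and rules were chosen with earlier results of these data known. The promoter motif gene list, the mismatch search and the exon overlap check were added after the fold changes had been seen. Some items of the alpha cell marker list are not reported here.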

Additional observations from a re-analysis of the deposited data

Results flagged for a closer look

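DMSO 2 stood apart from the other 5 DMSO samples for 3 of the members. It had 3.11 CPM of TXNDC5, where the nearest DMSO sample had 1.16 CPM. For TXNDC11 it had 69.3 CPM, with the nearest at 53.6 CPM, and for ERO1A it had 173 CPM, with the nearest at 126 CPM. The gap to the nearest sample was 0.704, 0.743 and 0.726 of the group's whole range, above Dixon's critical value of 0.625 for 6 samples. In all, 22 groups of values were examined, and chance gives such a gap in about 1 in 20 groups. The samples numbered 2 had the lowest summed mesenchymal markers of their groups (1314 CPM for DMSO 2, 1119 CPM for tunicamycin 2) and the lowest summed heart muscle markers (10.6 and 14.5 CPM), and the part of these in the 3 values was not tested. Without DMSO 2, 10 of 10 members passed as higher, and 845 genes did so over all tested genes. DMSO 2 was flagged for high values of 3 of these members, so this count is not independent of the flag.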

How the results depend on the processing

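PDIA4 and ERP44 passed the threshold in the fit reported and in all 28 alternatives, and no member changed direction in any. Batch 1 alone (3 samples against 3) left 2 members higher, beside 51 of the 17137 tested genes. The log2 fold changes there were 0.80 for P4HB (edgeR adjusted p = 0.295), 1.51 for PDIA3 (0.0710) and 1.18 for PDIA5 (0.0765). They were 1.81 for PDIA6 (0.159), 0.37 for TXNDC11 (0.632) and 0.71 for ERO1B (0.582). Fewer samples entered this fit. ERO1A passed with the replicate block (log2 fold change 0.40, adjusted p = 0.00394), upper-quartile factors (0.37, 0.0417), DESeq2 (0.39, 0.0157) and the filter by group alone (0.40, 0.0495), an alternative chosen after seeing the data. The cause was not tested.

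Leaving out samples, singly or by number, gave log2 fold changes of 0.78 to 0.90 for P4HB, 1.52 to 1.65 for PDIA3, 1.63 to 1.96 for PDIA6, 0.81 to 1.33 for TXNDC5, 0.45 to 0.57 for TXNDC11, 0.32 to 0.47 for ERO1A and 0.74 to 0.93 for ERO1B. ERO1A also passed without DMSO 2, tunicamycin 1, or both samples numbered 1 or 2. The members higher were 6 to 10, the other ER redox genes 4 to 9 higher and 0 to 1 lower, and the partner genes 5 to 5 higher and 0 to 1 lower. Over all tested genes 391 to 855 were higher and 173 to 603 lower. The ERO1A over ERO1B difference ran from -0.54 to -0.35, was -0.31 in batch 1 (exact p = 0.3) and -0.56 in batch 2 (exact p = 0.1).

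Of all tested genes 781 rose and 563 fell. The replicate block gave 1528 and 1439, batch 1 alone 51 and 6, batch 2 alone 434 and 208, and DESeq2 1007 lower. Other ER redox genes higher were 2 in batch 1, and those lower were 2 with the replicate block, upper-quartile factors or DESeq2 and 0 in batch 1 or batch 2 alone. Partner genes were 2 higher and 0 lower in batch 1. The replicate block changed the call of no member but ERO1A. With coding bases as the length, 6 members in DMSO and 3 in tunicamycin kept their place. TXNDC5 had at most 100 counts in a sample, which limits the precision of its values. The reason for its low count was not tested.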
